A study of Saccharomyces cerevisiae with 16 samples.

Results

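RNA from Saccharomyces cerevisiae cells lacking both RTR1 and RRP6 (rtr1Δ rrp6Δ) was compared with RNA from wild-type (WT) cells. The comparison used 8 of the 16 libraries of the series, 4 for each genotype, chosen by genotype label and by the column headers of the count table and paired by replicate number. The strains shared the background of BY4741, a haploid laboratory line of mating type a that is auxotrophic for histidine, leucine, methionine and uracil. In the double deletion strain RRP6 was removed in the yeast knockout collection, and RTR1 was then replaced by a kanamycin resistance cassette in that background, so the strain was derived through selection steps that WT cells did not pass. Cultures of every genotype were harvested at an OD600 of 0.8, and genotypes of 1 replicate number were grown on the same day. Ribosomal RNA was removed from total RNA before sequencing, and strand information was kept, so that sense and antisense reads stayed apart. Of the other groups, 3 rrp6Δ libraries (replicates 1, 3 and 4) were set beside this comparison, and rtr1Δ libraries were not analysed here. A difference from WT therefore carries the loss of both genes.

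Rrp6 belongs to the exosome of the nucleus, digests RNA from its 3′ end, trims the ends of small nucleolar RNAs (snoRNAs) and degrades many noncoding transcripts soon after they are made. Many of these transcripts end through the Nrd1-Nab3-Sen1 (NNS) complex, whose RNA-binding subunits recognise short motifs in the nascent RNA and which hands the RNA to the exosome. Rtr1 is a phosphatase of the C-terminal domain (CTD) of RNA polymerase II, the repeated tail whose phosphorylation guides the choice between elongation and termination.

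The table held counts for 12670 transcripts in 8 classes. ORF-T rows are transcripts of open reading frames. CUTs are cryptic unstable transcripts, NUTs are Nrd1-unterminated transcripts, SUTs are stable unannotated transcripts, SRTs are Ssu72-restricted transcripts and ASTs lie antisense to annotated transcripts. The sn/snoRNA class holds small nuclear and nucleolar RNAs, 78 of whose 158 rows carry the letters RT in their names. Neither RT nor the class name MAN is explained in the sources. Library totals ran from 31564740 to 38578463 counts in rtr1Δ rrp6Δ cells and from 32503478 to 36035490 in WT cells. Levels are given as CPM (counts scaled to a common library size) after TMM scaling, which sets libraries on a relative scale and does not measure RNA per cell. "Rose" and "fell" are used only of transcripts with an adjusted p of at most 0.05 and a change of at least 1.5-fold in edgeR's quasi-likelihood test with replicate number as a block. Transcripts overlap in places, and 65 rows could not be told from a second row by their counts, so some RNAs are counted in more than 1 class.

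Both deletions were visible in every library. RRP6 (YOR001W, chromosome XV, 326832 to 329033, sacCer3) had 5503, 4406, 3605 and 4483 counts in WT replicates 1 to 4. In the double deletion it had 22, 15, 9 and 8 counts, a log2 change of -8.58 ± 0.134 (SE). RTR1 (YER139C, chromosome V, 450563 to 451243) had 548, 605, 674 and 762 counts in WT cells and 38, 56, 35 and 43 in the double deletion (log2 change -4.11 ± 0.127). The antisense row of RTR1 had 52, 42, 44 and 16 counts in WT cells and 0 in all 4 double deletion libraries. Taking 3 counts in the whole group as the floor, it was at least 53.2-fold lower. Flanking genes changed little. EMP65, beside RTR1, differed by a log2 value of 0.09 (adjusted p = 0.223), and beside RRP6, PHO80 differed by 0.23 and ALG6 by -0.25. The auxotrophic markers were not at 0: MET17 had 0.705 to 2.23 CPM in WT cells, URA3 13.7 to 16.3 and HIS3 31.7 to 38.7. In the double deletion these ranges were 0.846 to 3.48, 9.82 to 12.7 and 24.6 to 32.5 CPM. None of the 3 passed the call in either direction. MET17, at a log2 change of 0.58, passed it with ORF-T scaling (0.84).

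Far more transcripts rose than fell in the double deletion, compared with WT cells. Of 12666 transcripts tested, 4395 rose (34.7%) and 1077 fell (8.5%). On this scale the imbalance is seen only with the fold minimum, since 4926 rows were higher and 4925 lower by adjusted p alone. Of those 4925, 3802 were ORF-T rows, a class whose median depends on the scaling (below). By class, 760 of 844 CUTs, 1184 of 1442 NUTs, 155 of 240 SRTs and 125 of 158 sn/snoRNA rows rose. Among SUTs 295 of 719 rose and 60 fell, among ASTs 1495 of 3055 rose and 233 fell, and among MAN rows 133 of 376 rose and 36 fell. ORF-T rows ran the other way, with 248 of 5836 higher (4.25% of the 5835 tested) and 706 lower (12.1%). The median log2 change was 2.51 for CUTs, 1.62 for NUTs, 1.18 for SRTs, 2.81 for sn/snoRNA rows, 0.55 for ASTs, 0.37 for SUTs, 0.22 for MAN rows and -0.27 for ORF-T rows, against -0.08 over all rows. Scaling on ORF-T rows alone raised all log2 changes by 0.262. It gave 4884 higher and 445 lower (91.6% of calls higher against 80.3%), and the ORF-T class then had 370 higher and 248 lower around a median of -0.01. That scaling centres ORF-T rows near 0 by construction, so it cannot show the direction of their median. The medians of the other classes stayed above 0 under both scalings.

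**Figure D1:**
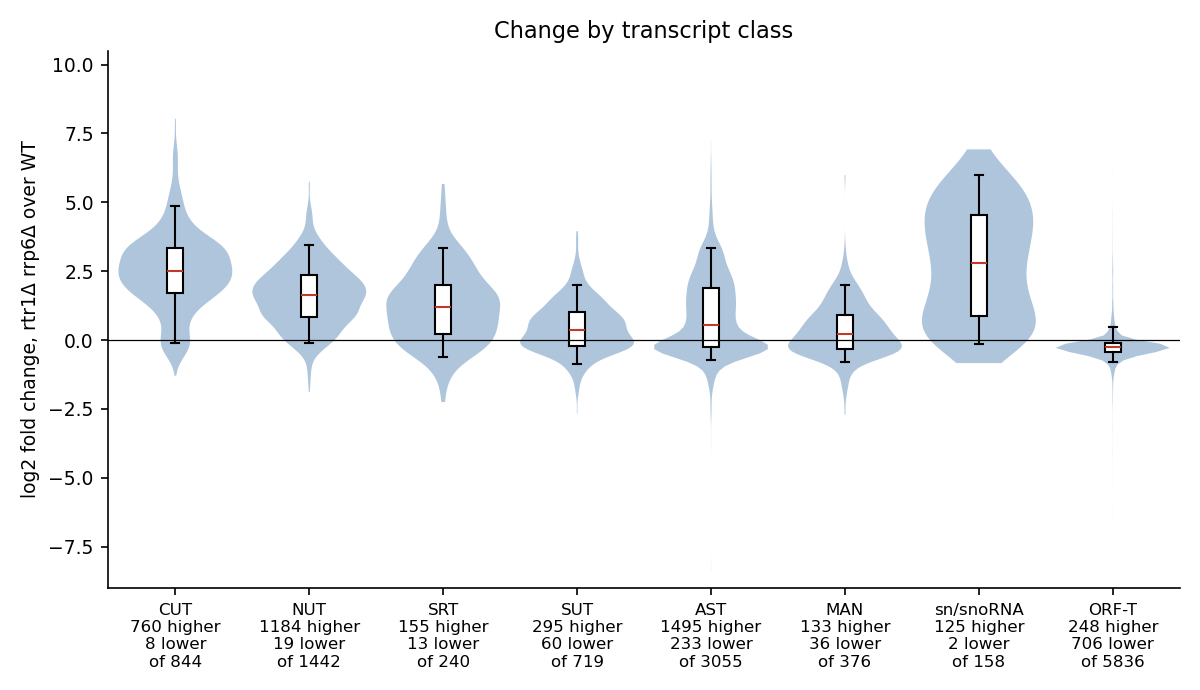
Distribution of the log2 fold change of rtr1Δ rrp6Δ over WT for every tested row of each class (violins, with boxes for the quartiles, red lines for the medians and whiskers at the 5th and 95th percentiles; y axis, log2 fold change). CUTs (median 2.51) and sn/snoRNA rows (median 2.81) lie highest and ORF-T rows (median -0.27) lowest.

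Part of these counts follows from which rows the table holds. The mean level in WT cells was under 1 CPM in 2350 rows and that in the double deletion in 544, so many rows passed a low-value limit through the deletion strains alone and had to be higher there. CUTs under 1 CPM in WT cells numbered 550 of 844, NUTs 469 of 1442 and ASTs 990 of 3055. ASTs were moreover kept by the authors because they changed in rrp6Δ cells, so their direction is not independent evidence. Among the 10320 rows with at least 1 CPM in WT cells, a limit chosen after seeing the data, 2424 rose (23.5%) and 663 fell (6.42%). There 225 of 294 CUTs, 749 of 973 NUTs, 58 of 125 SRTs, 273 of 647 SUTs and 121 of 152 sn/snoRNA rows rose. For ASTs 681 of 2065 rose, and their median log2 change was 0.02. These rows were scaled and fitted anew, which raised log2 changes by a median of 0.124, so part of the difference from the counts above is scaling.

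The classes also moved as shares of all counts in a library. CUTs made up 0.132%, 0.12%, 0.128% and 0.109% of counts in WT replicates 1 to 4 and 0.711%, 0.778%, 0.773% and 0.718% in the double deletion. Their mean share was 6.1 times as large, 0.745% ± 0.0351 against 0.122% ± 0.0103 (SD, n = 4 each). sn/snoRNA rows went from 3.65% ± 0.545 to 5.69% ± 0.452 and NUTs from 4.01% ± 0.487 to 5.91% ± 0.321. SRTs went from 0.0441% ± 0.00294 to 0.0931% ± 0.0103 and SUTs from 0.383% ± 0.0169 to 0.543% ± 0.0321. The share of ASTs, the second largest class by counts, moved from 11.5% ± 0.439 to 12.2% ± 0.204. ORF-T rows fell as a share from 79.6% ± 1.39 to 73.9% ± 0.913. WT and double deletion libraries did not overlap for any of the 8 classes, and every class gave the smallest p that an exact two-sided permutation test of 4 against 4 libraries allows (p = 0.0286, adjusted p = 0.0286 over the 8 classes). Shares sum to a fixed total and rest on the same choice of rows, so they are not independent of each other or of the counts above. Over the rows with at least 1 CPM in WT cells alone, the CUT share went from 0.0974% ± 0.00773 to 0.471% ± 0.0199, 4.83 times as large, and that of SRTs from 0.0391% ± 0.00271 to 0.0695% ± 0.00776. The AST share, at 11.5% ± 0.443 and 12% ± 0.212, then no longer passed (exact permutation p = 0.0857), while the other 7 classes kept p = 0.0286 (adjusted p = 0.0327) and their direction.

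**Figure D2:**
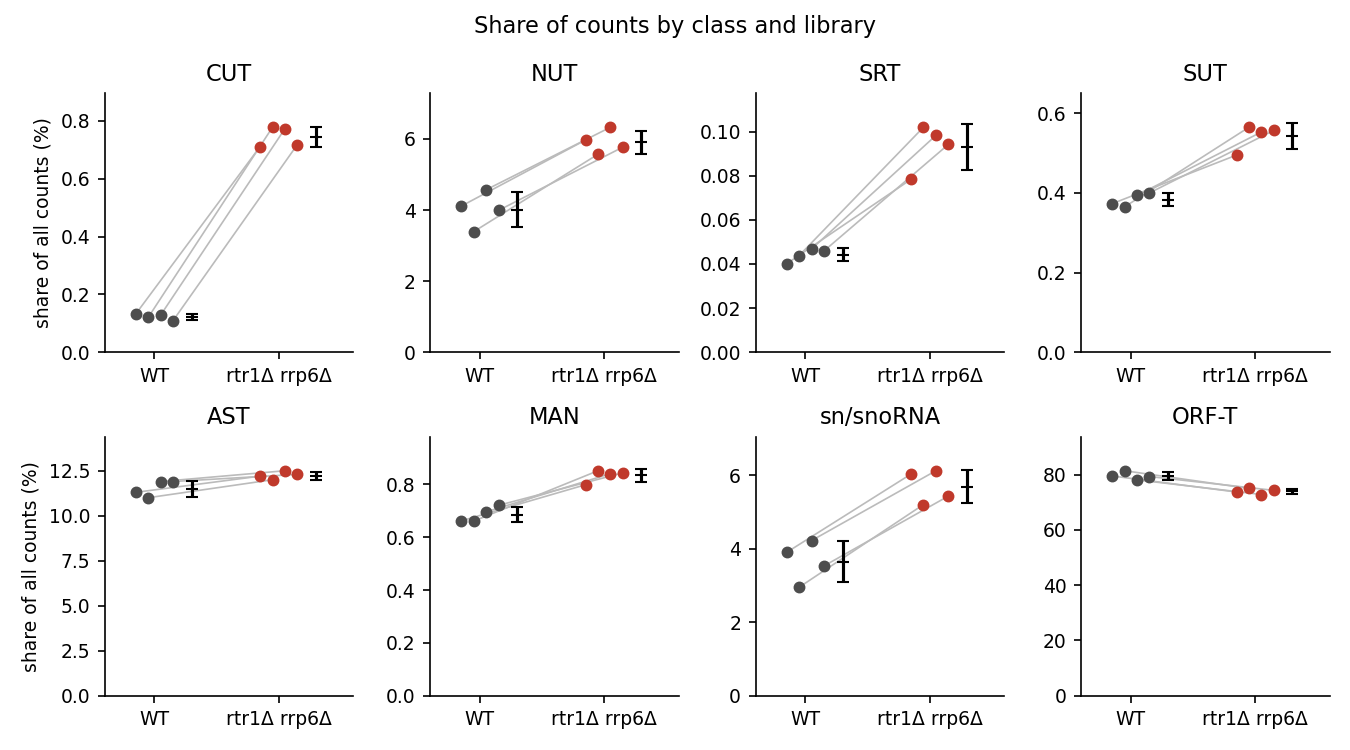
Share of all counts (y axis, %, from 0) taken by each class in the 4 WT (grey) and 4 rtr1Δ rrp6Δ (red) libraries, with lines joining libraries of the same replicate number and bars for mean ± SD. The CUT share lies between 0.109% and 0.132% in WT libraries and between 0.711% and 0.778% in the double deletion.

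Most sn/snoRNA rows rose. Of 78 rows with RT in their names 64 rose, with a median log2 change of 4.04, and of 80 rows without RT 61 rose, with a median of 1.88. This order turned for snoRNAs from shared precursors, where 9 of 17 RT rows rose (median 0.86) against 10 of 16 without RT (median 1.71). For snoRNAs in introns the share turned but the median did not, with 4 of 7 RT rows higher (median 2.87) against 6 of 8 without RT (median 2.44). The annotation of extended snoRNA transcripts was drawn by the authors from rrp6Δ reads, so where a row is such an extension its rise was part of its definition. The 3 largest rises were SNR80-RT, SNR37-RT and SNR30-RT, named for H/ACA box snoRNAs, a class that guides pseudouridylation of RNA (snR30 is known instead for its part in ribosomal RNA cleavage). The 150 bases that follow the annotated 3′ end of each of these genes are shown because NNS motifs are known to lie downstream of snoRNA genes. They are given 5′ to 3′ on the transcribed strand (RefSeq assembly R64, coordinates as in sacCer3), with Nrd1 motifs (GTAA or GTAG) and Nab3 motifs (TCTT or CTTG) in capitals. Adjoining capitals can hold overlapping matches.
SNR80, chrV:52000-52149, minus strand: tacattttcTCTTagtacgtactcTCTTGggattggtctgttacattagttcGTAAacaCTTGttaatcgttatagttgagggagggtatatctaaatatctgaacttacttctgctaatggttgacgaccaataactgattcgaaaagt
SNR37, chrX:227944-228093, minus strand: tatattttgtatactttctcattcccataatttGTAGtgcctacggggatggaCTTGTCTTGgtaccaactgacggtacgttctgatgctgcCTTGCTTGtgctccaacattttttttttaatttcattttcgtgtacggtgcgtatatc
SNR30, chrXII:199390-199539, plus strand: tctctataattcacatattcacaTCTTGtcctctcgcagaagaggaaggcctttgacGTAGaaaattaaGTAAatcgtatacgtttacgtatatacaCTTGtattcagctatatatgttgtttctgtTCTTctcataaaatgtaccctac

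Each of these 3 flanks held at least 1 motif of both kinds. Of the 3′ flanks of 82 annotated sn/snoRNA genes, 68.3% held both on the transcribed strand and 30.5% on the opposite strand. The shares for 6002 protein-coding 3′ flanks of the same length were 48.5% and 48.8%. A match of letters is a description and does not show binding.

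SNR80-RT had 2.18, 1.7, 2.58 and 1.33 CPM in WT cells and 226, 232, 246 and 231 CPM in the double deletion. This is a log2 change of 6.92 ± 0.135 (adjusted p = 1.8e-10). The rule that named the largest rises and falls required groups without overlap, so that separation is not a result. Over all rows, WT and double deletion libraries did not overlap in 7069 of 12670 (55.8%). SNR37-RT was at 0.17 to 0.504 CPM in WT cells and at 33.1 to 45.3 CPM in the double deletion (log2 change 6.67 ± 0.185), and SNR30-RT at 0.441 to 1.05 and 48.5 to 94.6 CPM (6.56 ± 0.232). The rows of the same 3 snoRNAs without RT, named here after their values were seen, did not move alike. SNR80 rose from 31.4 to 56.8 CPM in WT cells to 235 to 278 CPM in the double deletion (log2 change 2.53). SNR37 had 7470, 3460, 6800 and 5210 CPM in WT cells against 5840, 3560, 6370 and 4720 CPM in the double deletion (-0.14, adjusted p = 0.162), and SNR30 differed by 0.06 (adjusted p = 0.521). For SNR37 and SNR30 the groups overlapped.

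Rows without RT were also split at their median gene length, with no test of the difference. Over the 75 rows matched to a RefSeq gene, 33 of the 38 genes of up to 136 bases rose, with a median log2 change of 2.75, and 24 of the 37 longer genes rose, with a median of 1.17. The shorter genes also had the lower level in WT cells, with a median of 7.64 CPM against 185 CPM, and the part of level and of length in this difference was not tested. SNR71, a C/D box snoRNA and the row without RT that rose most, went from 6.7 to 12.3 CPM in WT cells to 624 to 715 CPM (log2 change 6.03 ± 0.161). By gene organisation, 6 of 8 rows without RT for snoRNAs that lie in introns rose, and so did 10 of 16 for snoRNAs released from shared precursors and 42 of the 52 others apart from spliceosomal and polymerase III RNAs. Of the 2 spliceosomal RNAs made by RNA polymerase II 1 rose (median log2 change 0.34), and both products of RNA polymerase III rose (median 1.03). SNR52, which guides methylation of ribosomal RNA, had 17.1, 7.77, 9.33 and 2.49 CPM in WT cells and 39.2, 15.5, 17.4 and 9.46 CPM in the double deletion (log2 change 1.21 ± 0.144), with groups that overlapped but all 4 replicate pairs higher. SNR6, the U6 RNA of the spliceosome and the other polymerase III product, changed by 0.84 ± 0.201. Both calls were lost without the replicate block. SNR86 was the only row of the class named for a fall, from 3990 to 6510 CPM in WT cells to 2850 to 3680 CPM (-0.59 ± 0.0843, adjusted p = 0.00012). This call was lost under 6 of the 15 alternative settings.

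CUTs with the largest rises were nearly silent in WT cells. CUT222 had 0.605, 0.523, 0.599 and 0.792 CPM in WT cells and 150, 175, 177 and 167 CPM in the double deletion (log2 change 8.03 ± 0.111, adjusted p = 7.1e-11). CUT433 went from 0.424 to 0.974 CPM to 146 to 164 CPM (7.74), and CUT543 from 0.452 to 0.914 CPM to 86.5 to 95.3 CPM (7.11). All 3 were named by a rule that required groups without overlap, so their separation was fixed by that choice. Their means in WT cells were under 1 CPM, as for 550 of the 844 CUTs. CUT281 fell furthest, from 1.71 to 2.36 CPM to 0.684 to 0.9 CPM (-1.29 ± 0.194).

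NUTs, SRTs, SUTs and MAN rows followed with smaller maxima. NUT0349 went from 13.9 to 19.9 CPM in WT cells to 875 to 954 CPM (log2 change 5.67 ± 0.112), and MAN_Unit169, whose counts were close to those of NUT0349 in every library, changed by 5.99. NUT0013 changed by 5.74 and NUT0275 by 5.59. SRT500 had 0.806, 0.751, 1.48 and 1.19 CPM in WT cells and 49.6, 51, 61.7 and 52.4 CPM in the double deletion (5.66 ± 0.126). The other leading SRTs were SRT247 (5.15) and SRT203 (4.8). SUT503 led its class with 1.58 to 2.59 CPM against 24.5 to 40.4 CPM (3.77 ± 0.153), ahead of SUT535 (3.7) and SUT279 (3.45). Falls were fewer and shallower in these classes. SUT694 fell from 13.6 to 20.7 CPM to 1.63 to 3.79 CPM (-2.66 ± 0.133), and MAN_Unit259 fell by the same measure (-2.7) with nearly the same counts. SRT168 fell by 2.25 on the log2 scale and NUT0493 by 1.89.

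Antisense transcripts included some of the largest rises. AS_Unit4710 had 2.62, 2.94, 3.12 and 2.04 CPM in WT cells and 397, 405, 428 and 381 CPM in the double deletion (log2 change 7.24 ± 0.103). AS_YMR194C-A and AS_YLR028C rose by 6.57 and 6.48 on the log2 scale. The counts of AS_YLR028C were close to those of SNR30-RT, so both rows describe largely the same reads. AS_YAR050W, antisense to the flocculin gene FLO1, fell furthest, from 3.85 to 7.09 CPM to 0.219 to 0.729 CPM (-3.59 ± 0.244), while FLO1 rose from 4.7 to 6.25 CPM to 8.86 to 12.9 CPM (1.02 ± 0.1). FLO1 has close paralogs, among which shared reads may be divided.

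Among sense partners of raised antisense transcripts more fell than rose, as among all pairs. In 1087 pairs of an ORF-T row and the AST named for it, 176 sense rows fell (16.2%) and 84 rose (7.73%), and 779 ASTs rose. Of their 779 sense partners 143 fell (18.4%) and 15 rose (1.93%), against 26 (11.1%) and 51 (21.8%) of the 234 partners of ASTs that were not called. Where the AST fell, 7 of 74 partners fell and 18 rose. The median log2 change of the sense partners was -0.33, -0.22 and -0.06 in these 3 groups of pairs (-0.07, 0.04 and 0.21 with ORF-T scaling, which turns the sign of the last 2). No test was run on these shares. For raised ASTs with at least 1 CPM in WT cells, 63 of 249 partners fell (25.3%) and 6 rose (2.41%). The shares over all pairs at that limit were not counted, nor were calls of sense partners with ORF-T scaling. Over all ORF-T rows that scaling took the falls from 706 to 248.

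The 4 pairs with the largest opposite changes showed both directions. TIS11, an mRNA-binding protein that promotes decay of mRNAs during iron shortage (chromosome XII, 415801 to 416658), had 117, 114, 98.8 and 158 CPM in WT cells and 32.4, 54, 45 and 32.7 CPM in the double deletion (log2 change -1.58 ± 0.175). Its antisense row rose from 0.679 to 1.26 CPM to 11 to 13 CPM (3.47 ± 0.159). NPY1, a hydrolase of NADH, fell from 63.6 to 67.4 CPM to 18.9 to 22 CPM (-1.7 ± 0.0668) as its antisense row rose by 2.93 on the log2 scale. GMC1, a gene used in meiosis, fell by 1.99 on the log2 scale as its antisense row rose by 2.53. YPL114W was the reverse case, rising from 2.87 to 3.76 CPM to 12.3 to 15.8 CPM (2.11 ± 0.128) while its antisense row fell by 2.43 on the log2 scale. Of the antisense cases followed by the study, PHO84, the high-affinity phosphate transporter, had 933 to 1300 CPM in WT cells and 822 to 1200 CPM in the double deletion (-0.2, adjusted p = 0.0289, under 1.5-fold), and its antisense row fell from 1.56 to 2.17 CPM to 0.557 to 0.754 CPM (-1.44 ± 0.201). NNR2 (YKL151C) differed by -0.43 ± 0.119, with replicate 1 lowest in both genotypes (9.74 and 4.91 CPM), and did not reach 1.5-fold. Its antisense row was not analysed here.

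**Figure D3:**
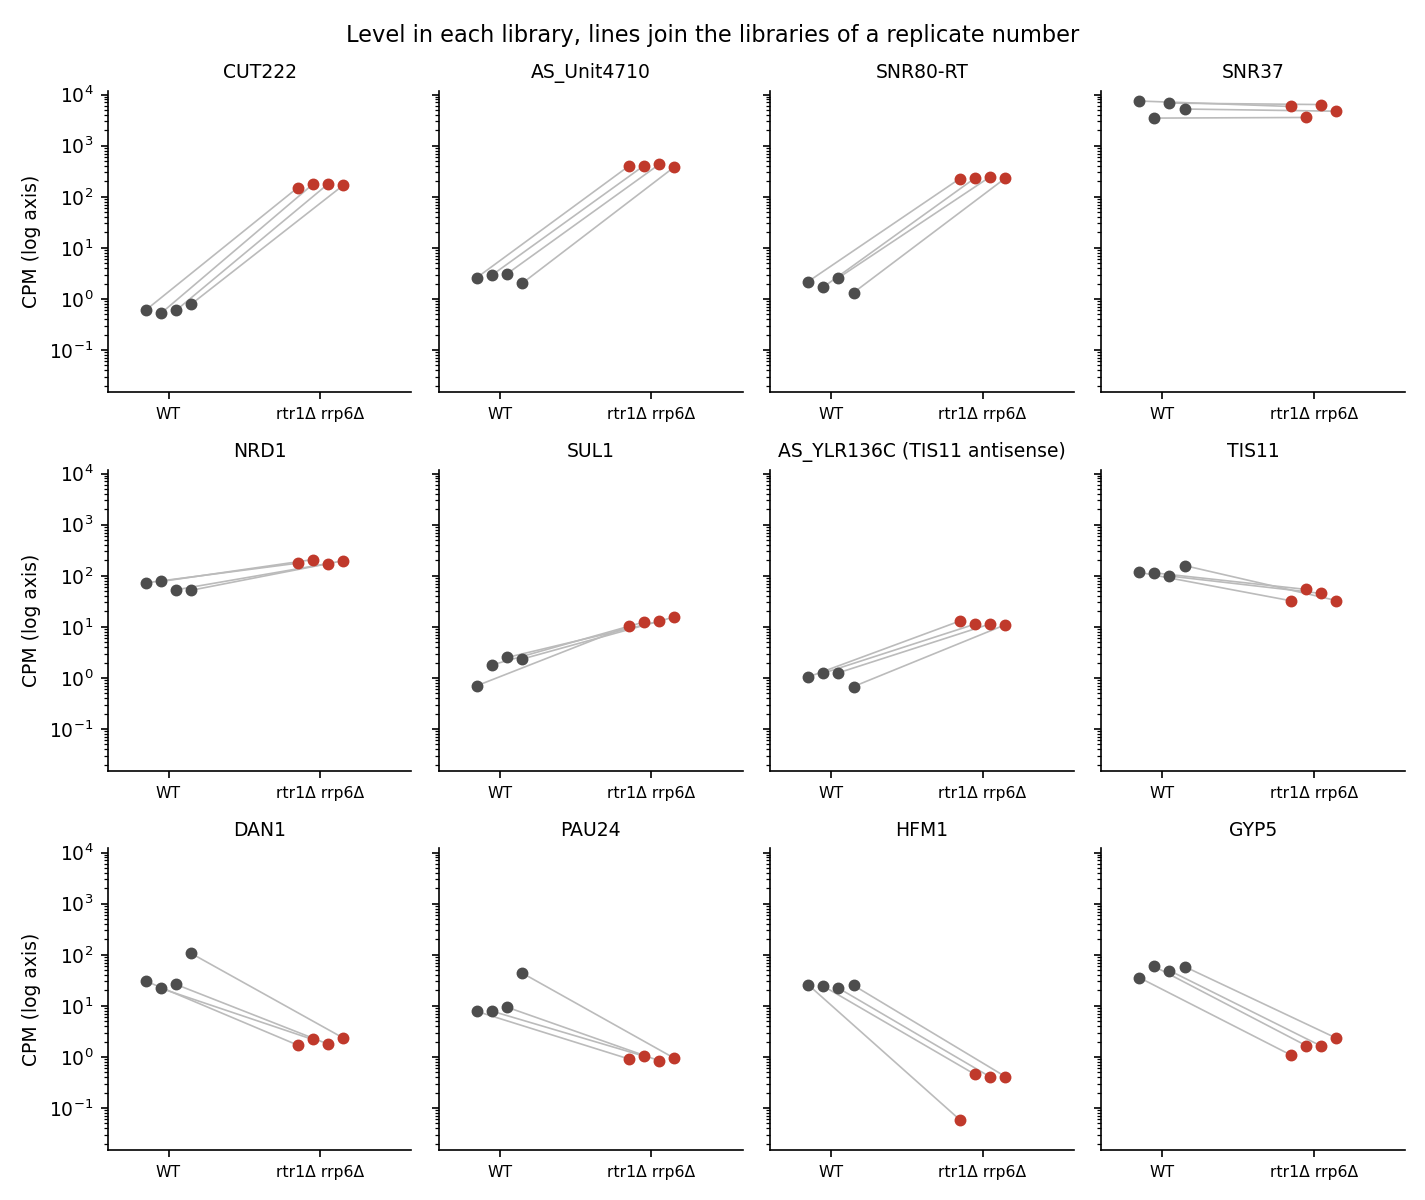
CPM (log axis) of 12 transcripts in each of the 4 WT (grey) and 4 rtr1Δ rrp6Δ (red) libraries, with lines joining libraries of the same replicate number. CUT222 rises from under 1 CPM to at least 150 CPM, SNR37 stays within the WT range, and the WT library of replicate 4 stands above the other WT libraries for DAN1 (106 CPM) and PAU24 (43.6 CPM).

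The mRNAs listed under early NNS termination did not move together, and the membership of each, NAB2 among them, was not checked here. Of 10 measured members of this list of 11, 2 rose (20%, against 4.25% of ORF-T rows) and 1 fell (10%, against 12.1%). Their median log2 change was 0.08. With ORF-T scaling 3 rose and 1 fell, around a median of 0.34, against 6.34% and 4.25% of ORF-T rows. NRD1 (YNL251C, chromosome XIV, 172588 to 174315), whose protein product limits its own mRNA through early termination, had 72.5, 77.2, 53.1 and 52 CPM in WT cells and 176, 207, 173 and 197 CPM in the double deletion (log2 change 1.58 ± 0.101, adjusted p = 3.9e-07). All double deletion libraries lay above all WT libraries. NAB2, a poly(A)-binding protein of the nucleus, rose from 152 to 163 CPM to 230 to 281 CPM (0.71 ± 0.0655). IMD2 (YHR216W, chromosome VIII, 554396 to 555967), an IMP dehydrogenase of guanine nucleotide synthesis, fell. It had 159, 165, 119 and 123 CPM in WT cells and 74.6, 67.7, 59.6 and 56.1 CPM in the double deletion (-1.13 ± 0.0664, adjusted p = 2.3e-07). The row of the transcript upstream of IMD2 did not differ beyond its spread, with 17.7 to 26.3 CPM in WT cells and 20.4 to 25.6 CPM in the double deletion (0.05 ± 0.0874, adjusted p = 0.634). URA8, a CTP synthase gene with a similar upstream start, differed by 0.3 ± 0.06 and did not reach 1.5-fold.
The 200 bases before the coding start of NRD1 and IMD2 are shown because early termination acts near the start of these genes. Strand, build, motifs and capitals are as for the snoRNA flanks.
NRD1, chrXIV:174316-174515, minus strand: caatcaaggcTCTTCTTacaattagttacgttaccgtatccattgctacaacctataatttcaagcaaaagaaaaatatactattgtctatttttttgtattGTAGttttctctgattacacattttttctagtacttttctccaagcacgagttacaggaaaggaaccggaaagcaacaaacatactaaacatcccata
IMD2, chrVIII:554196-554395, plus strand: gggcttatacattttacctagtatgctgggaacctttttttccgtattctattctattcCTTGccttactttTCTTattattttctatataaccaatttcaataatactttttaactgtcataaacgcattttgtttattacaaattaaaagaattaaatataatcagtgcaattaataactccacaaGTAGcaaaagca
Both flanks held 1 Nrd1 motif and 2 Nab3 motifs, and 63.8% of 6001 such flanks of protein-coding genes held both kinds.

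Few genes of the RNA decay and termination machinery itself passed the call. Over all ORF-T rows 4.25% passed it as higher and 12.1% as lower, and at those shares a short list can hold no call. The lists were not tested against these shares. Of 18 exosome and TRAMP genes only RRP6 was called, and none of 21 termination and 3′ end factors was. Among the latter the smallest adjusted p belonged to PTI1 (0.00035), at a log2 change of 0.45 ± 0.0748, and with ORF-T scaling PTI1 (0.72), REF2 (0.64) and AIR2 of the TRAMP complex (0.69) passed the call as higher. Among 10 CTD phosphatases and kinases, RTR1 fell and SSU72 rose. SSU72, which removes phosphate from serine 5 of the CTD repeat, had 18.5, 15.7, 17.9 and 17.1 CPM in WT cells and 30.1, 26.2, 30.7 and 26.8 CPM in the double deletion (0.72 ± 0.0717, adjusted p = 9.8e-06), without overlap. None of 12 RNA polymerase II subunits, 16 snoRNP proteins and maturation factors, 45 ribosome biogenesis genes, 33 proteasome genes, 17 cytoplasmic decay factors, 12 pyrimidine genes, 7 a-cell genes and 4 α-cell genes passed the call. Their list medians lay between -0.29 and 0.02 on the main scale. Without the 1.5-fold minimum edgeR's adjusted p called 65.2% of ORF-T rows lower and 7.51% higher. At that limit 11 of the exosome and TRAMP genes, 12 of the termination factors, 13 of the decay factors, 7 of the polymerase subunits, 8 of the snoRNP genes and 17 of the ribosome biogenesis genes were lower.

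ORF-T rows that rose most were mainly not in the RefSeq gene set. Of 250 ORF-T rows without a RefSeq gene 97 rose (38.8%), against 151 of the 5586 matched rows (2.7%). In the fit of rows with at least 1 CPM in WT cells the shares were 33 of 178 (18.5%) and 155 of 5532 (2.8%). Of the 10 largest rises, 7 were such unmatched rows. YLR364C-A had 1, 1, 0 and 1 counts in WT cells and 1.65 to 3.38 CPM in the double deletion, too few counts in WT cells for a fold change to be read. YCL007C went from 0.424 to 0.751 CPM to 38.7 to 43.3 CPM (log2 change 6.14). YDR199W, YDR426C, YER137W-A, YGL152C and YML094C-A rose by 4.1 to 5 on the log2 scale. YDR199W was at 0.101, 0.0327, 0.0315 and 0.0283 CPM in WT cells, so its fold change cannot be read either. The matched ones were YJL047C-A, from 6.9 to 11.8 CPM to 213 to 269 CPM (4.61 ± 0.144), YDR042C, from 4.5 to 5.58 CPM to 113 to 124 CPM (4.58 ± 0.0871), and YHR214C-E, from 0.0672 to 0.198 CPM to 2.61 to 3.26 CPM (4.3 ± 0.258).

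Among the deepest falls apart from the deleted genes were HFM1 and GYP5. HFM1, a meiotic DNA helicase (chromosome VII, 27921 to 31636), had 26.1, 24.4, 22.3 and 25.2 CPM in WT cells and 0.0591, 0.456, 0.407 and 0.413 CPM in the double deletion (log2 change -6.16 ± 0.243, adjusted p = 2e-08). GYP5, a GTPase-activating protein of vesicle transport (chromosome XVI, 76669 to 79353), went from 35.8, 59, 49 and 58.5 CPM to 1.09, 1.67, 1.63 and 2.33 CPM (-4.91 ± 0.106). Both were near 0 in every library of the double deletion and in none of the WT libraries. Neighbouring genes were looked up after these values were seen. Of the genes beside HFM1, RMR1 fell from 3.56 to 8.42 CPM to 1.39 to 4.72 CPM (-0.95 ± 0.144), and RTG2 differed by -0.2 and was not called. Beside GYP5, ATG41 and GAL4 differed by -0.47 and 0.06 and were not called. HFM1 and GYP5 were also low in the 3 rrp6Δ libraries, at 0.715 to 0.864 and 1.17 to 2.49 CPM. The other falls of this size that are named here were of PAU and DAN genes.

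Genes of anaerobic growth fell together. PAU genes encode small cell wall proteins induced without oxygen, and DAN and TIR genes encode cell wall mannoproteins made under the same condition. Of 12 measured PAU genes among 24 listed, 9 fell (75%, against 12.1% of ORF-T rows) and none rose. Their median log2 change was -2.24 (-1.99 with ORF-T scaling). All 6 measured DAN and TIR genes fell, with a median of -2.27 (-2.01). With ORF-T scaling 8 PAU genes and all 6 DAN and TIR genes fell, against 4.25% of ORF-T rows. DAN1 (chromosome X, 708811 to 709707) had 30.6, 22, 26.2 and 106 CPM in WT cells and 1.71, 2.2, 1.79 and 2.36 CPM in the double deletion (-4.28 ± 0.286). PAU24 (chromosome II, 809057 to 809419) had 7.79, 7.87, 9.39 and 43.6 CPM in WT cells and 0.846 to 1.04 CPM in the double deletion (-3.9 ± 0.365). The WT library of replicate 4 was the highest for both, and the groups did not overlap with or without it. TIR1 fell from 110 to 249 CPM to 19.3 to 30.4 CPM (-2.56 ± 0.152). PAU9, PAU13 and PAU5 fell by 6.51, 5.16 and 4.05 on the log2 scale. Without replicate 4, 8 PAU and 6 DAN and TIR genes were lower, at medians of -1.63 and -1.87. PAU genes are near-identical copies between which reads may be divided, so single members are uncertain.

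Among 29 hypoxic and sterol genes 6 fell (20.7%, against 12.1% of ORF-T rows) and none rose. AUS1 and PDR11 are sterol importers used without oxygen. AUS1 had 162, 128, 123 and 341 CPM in WT cells and 43.1, 44.6, 36.3 and 39.3 CPM in the double deletion (log2 change -2.07 ± 0.216), again with WT replicate 4 highest and no overlap. PDR11 fell from 16.5 to 25.8 CPM to 5.11 to 6.33 CPM (-1.81 ± 0.132). UPC2, the sterol-sensing activator of these genes, fell from 104 to 176 CPM to 48.9 to 69.9 CPM (-1.25 ± 0.118), and ANB1, a hypoxic form of translation factor eIF5A, fell from 83.2 to 156 CPM to 32.8 to 39.6 CPM (-1.55 ± 0.103). The remaining calls were AAC3 (-0.93) and ARE1 (-0.61). The median of the whole list was -0.3, close to that of all ORF-T rows.

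Iron genes fell as well. Of 29 genes of the iron regulon 18 fell (62.1%, against 12.1% of ORF-T rows) and 2 rose, at a median log2 change of -0.67. With ORF-T scaling 8 fell, against 4.25% of ORF-T rows, and 2 rose. The mannoproteins FIT1, FIT2 and FIT3, which hold iron-siderophores at the cell wall, fell by 1.63, 1.29 and 1.5 on the log2 scale. The siderophore transporters ARN1, ARN2, SIT1 and ENB1 fell by 1.11, 1.38, 1.2 and 1.09. FTR1, the high-affinity iron permease, had 202, 164, 157 and 221 CPM in WT cells and 137, 105, 98.6 and 114 CPM in the double deletion (-0.71 ± 0.0759), without overlap. MRS4, a mitochondrial iron carrier, fell from 62.3 to 87.2 CPM to 34.8 to 48.1 CPM (-0.7 ± 0.0763). The calls for FTR1 and MRS4 were lost with ORF-T and with upper-quartile scaling. The members that rose were HMX1, a heme oxygenase, from 7.66 to 12.7 CPM to 16.9 to 24.9 CPM (1.04 ± 0.0846), and FRE2, a ferric reductase, from 15.1 to 18.8 CPM to 23.2 to 31.5 CPM (0.77 ± 0.116).

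Some genes of NAD synthesis, purine synthesis and chromatin fell, though most members of these lists were not called. Of 16 genes of NAD synthesis 6 fell (37.5%, against 12.1% of ORF-T rows) and none rose. NMA2, which makes NAD from its mononucleotide precursor, had 39.1, 44.3, 49.8 and 62.8 CPM in WT cells and 15, 21.5, 20.6 and 22.3 CPM in the double deletion (log2 change -1.3 ± 0.084). The kynurenine pathway genes BNA4, BNA5, BNA6 and BNA7 fell by 0.82, 0.77, 0.94 and 0.64 on the log2 scale, and the calls of BNA4 and BNA7 were lost with ORF-T scaling. Of 17 genes of purine and GMP synthesis 5 fell (29.4%). ADE17, a late enzyme of purine synthesis, went from 579 to 760 CPM to 159 to 394 CPM (-1.22 ± 0.169), and IMD3, a paralog of IMD2, fell by 0.59 at the edge of the 1.5-fold limit, a call lost under 8 of 15 alternatives. ADE2 (-0.71, lost with ORF-T scaling) and SHM2 (-0.82) also fell. Of 11 histone genes 3 fell (27.3%) and none rose. HHO1, linker histone H1, went from 59.5 to 72.6 CPM to 30.3 to 41.6 CPM (-0.86 ± 0.0636). HHT2 and HHF2, a divergent gene pair for H3 and H4, fell by 0.73 and 0.62, calls lost with ORF-T scaling. With that scaling, under which 4.25% of ORF-T rows fell, the falls numbered 2 in NAD synthesis, 2 in purine synthesis and 1 among histones.

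Of 25 measured genes of meiosis and sporulation, which are normally kept low in haploid cells, 12 fell (48%, against 12.1% of ORF-T rows) and 2 rose. With ORF-T scaling 8 fell and 3 rose. ZIP2, a protein of chromosome synapsis, had 3.43, 4.34, 4.66 and 5.23 CPM in WT cells and 0.887, 0.886, 0.94 and 1.17 CPM in the double deletion (log2 change -2.18 ± 0.147). MSH5, a meiotic crossover protein, fell from 17.7 to 19.4 CPM to 9.02 to 9.99 CPM (-0.95 ± 0.083). REC104, which takes part in the start of meiotic recombination, had 3.09, 3.17, 3.37 and 3.11 CPM in WT cells and 24, 23.9, 19.7 and 21.3 CPM in the double deletion (2.8 ± 0.105, adjusted p = 1.4e-08). The other rise was SMK1 (0.7), a kinase of spore wall formation, at 1.14 CPM on average in WT cells.

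Sulfur genes rose. Of 22 genes of sulfate assimilation and methionine metabolism 10 rose (45.5%, against 4.25% of ORF-T rows) and none fell, at a median log2 change of 0.53. SUL1, a high-affinity sulfate permease (chromosome II, 789235 to 791814), had 0.705, 1.8, 2.52 and 2.35 CPM in WT cells and 10.3, 12.4, 12.8 and 15.6 CPM in the double deletion (2.83 ± 0.19, adjusted p = 5.4e-07), without overlap. SUL2, the second sulfate permease, rose from 22.9 to 29.4 CPM to 37.4 to 69 CPM (1.07 ± 0.104). MET2 had 8.87, 23.5, 15.3 and 15.4 CPM in WT cells and 22.4, 47.4, 42.5 and 54 CPM in the double deletion (1.41 ± 0.117), and STR3 had 4.53, 17.6, 13.9 and 13.9 against 8.45, 47.8, 35.7 and 42.5 CPM (1.36 ± 0.108). For both of these methionine pathway genes replicate 1 was lowest in each genotype, so the groups overlapped while all 4 pairs rose. MET3, MET5 and MET10, of the path from sulfate to sulfide, rose by 0.89, 0.7 and 0.67 on the log2 scale. All strains derive from BY4741, which lacks a functional MET17 gene of this pathway.

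Rises elsewhere among matched genes were scattered. RPL18B and RPS14B were the only ribosomal protein genes to rise, among 75 measured for the large and 56 for the small subunit. RPL18B had 227, 213, 204 and 177 CPM in WT cells and 557, 486, 560 and 502 CPM in the double deletion (log2 change 1.36 ± 0.0738), and RPS14B rose from 150 to 187 CPM to 240 to 313 CPM (0.72 ± 0.0637). RPL8A and RPL22B fell by 0.67 and 0.78 on the log2 scale, calls lost with ORF-T scaling. HSP30, a plasma membrane stress protein, had 6.42, 43.7, 37.6 and 15 CPM in WT cells and 20.5, 140, 168 and 40.7 CPM in the double deletion (1.75 ± 0.108). HXT4, a glucose transporter, had 27, 102, 135 and 99.3 CPM in WT cells and 81.4, 256, 254 and 305 CPM (1.36 ± 0.111). Both genes overlapped between genotypes because the libraries of a replicate number moved together, and all 4 pairs rose.

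**Figure D4:**
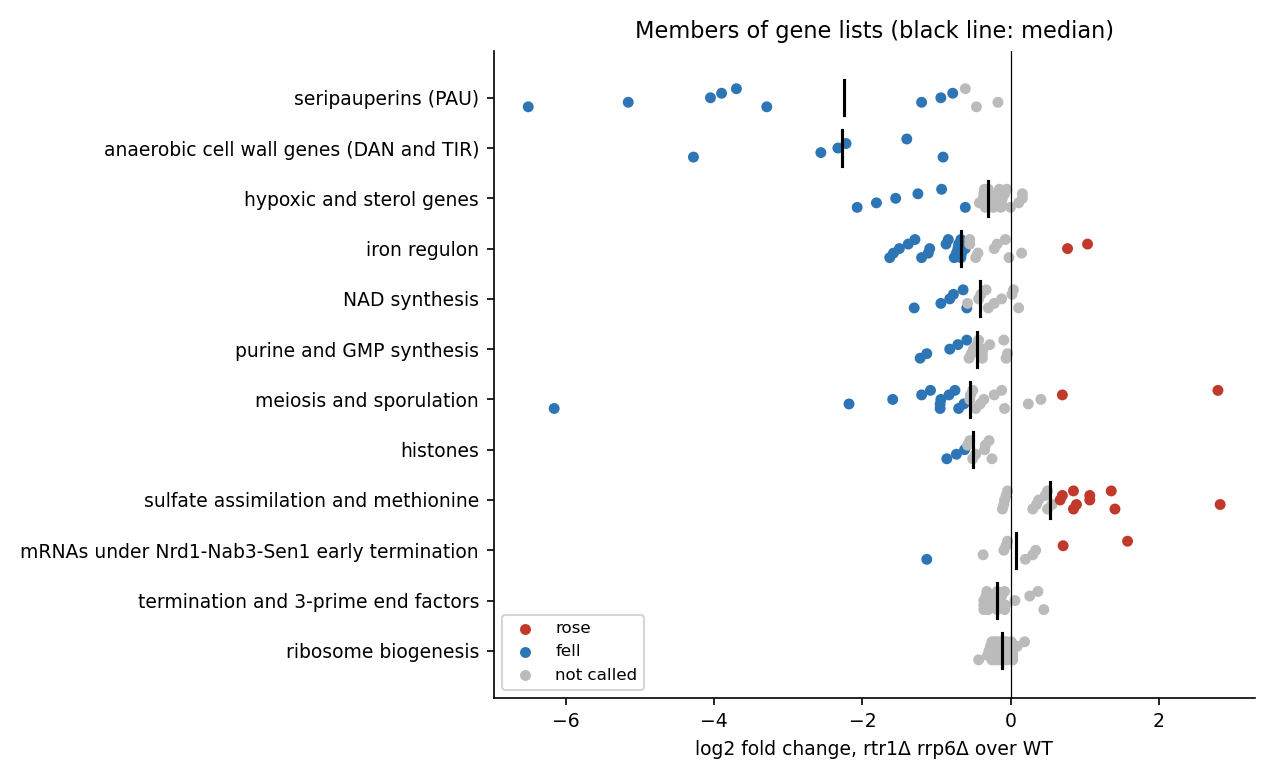
log2 fold change of rtr1Δ rrp6Δ over WT (x axis) for each measured gene of 12 lists, with genes that rose in red, genes that fell in blue, genes not called in grey and list medians as black lines. PAU (median -2.24) and DAN and TIR genes (median -2.27) lie lowest, and sulfate and methionine genes (median 0.53) highest.

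The rrp6Δ libraries show which changes against WT were also present in a strain that kept RTR1. List medians of rrp6Δ over WT, from the fit of all 11 libraries, are given with those of the double deletion in parentheses. They were -2.94 (-2.24) for PAU, -2.13 (-2.27) for DAN and TIR, -0.31 (-0.3) for hypoxic and -0.9 (-0.67) for iron genes. For NAD synthesis, purine synthesis, histone, meiotic and sulfur genes they were -0.3 (-0.41), -0.54 (-0.45), -0.63 (-0.51), -0.42 (-0.55) and 0.52 (0.53). Between the double deletion and rrp6Δ cells 69 transcripts were higher (0.545%) and 427 lower (3.37%), counts that dropped to 33 and 93 without replicate 3 and to 18 and 96 without the replicate block. Lower rows numbered 183 among ASTs, 76 among NUTs, 58 among ORF-T rows, 46 among SUTs, 28 among CUTs, 19 among MAN rows, 17 among SRTs and 0 among sn/snoRNA rows. No SUT and 5 sn/snoRNA rows were higher. CPM in the next sentences come from the fit of all 11 libraries and differ slightly from those above.

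IMD2 had 131, 131 and 106 CPM in rrp6Δ replicates 1, 3 and 4 and 83.7, 69.9, 59.3 and 57.9 CPM in the double deletion (log2 difference -0.92 ± 0.09, adjusted p = 0.00019). The transcript upstream of it had 46.4, 43.9 and 33.7 CPM in rrp6Δ cells and 28.7, 22.1, 20.6 and 21.1 CPM in the double deletion (-0.86 ± 0.0996, adjusted p = 0.00063, and 0.0613 without the block). In both rows every double deletion library was below every rrp6Δ library. ZRT1, the high-affinity zinc transporter, was at 149, 118 and 97.5 CPM in rrp6Δ cells, at 53.8, 41.6, 33.7 and 38.5 CPM in the double deletion and at 63 to 101 CPM in WT cells (-1.52 ± 0.0837 against rrp6Δ, adjusted p = 1.4e-06). NRT1, a transporter of nicotinamide riboside, was at 34.3 to 40.3 CPM in rrp6Δ cells, at 15.7 to 18.9 CPM in the double deletion and at 41.9 to 48.5 CPM in WT cells (-1.12 ± 0.0845). BNA4 was lower (-0.6 ± 0.0904), a call lost without the block (adjusted p up to 0.0975 over the alternatives).

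Noncoding rows with the smallest adjusted p against rrp6Δ were also lower in the double deletion. CUT884 had 7.98, 4.92 and 5.56 CPM in rrp6Δ cells, 1.66, 1.36, 1.9 and 1 CPM in the double deletion and 0.394 to 0.919 CPM in WT cells (-2.06 ± 0.193 against rrp6Δ). AS_YPL221W and NUT1463 had the same order of genotypes, at 8.87 to 15.5 and 10.1 to 16.4 CPM in rrp6Δ cells against 2.62 to 3.48 and 3.57 to 4.64 CPM in the double deletion. SUT116 was highest in rrp6Δ cells and lowest in the double deletion within each shared replicate number, with replicate 1 high in every genotype. It had 20, 9.99 and 10.9 CPM in rrp6Δ cells, 8.81, 3.95, 3.43 and 3.11 CPM in the double deletion and 16, 7.44, 7.87 and 6.3 CPM in WT cells (-1.48 ± 0.122). This difference was not called without the block (adjusted p = 0.147). MAN_Unit124 and AS_Unit2948 had values close to those of SUT116. In the other direction SRT500 was at 28.9, 37 and 31 CPM in rrp6Δ cells and at 55.6, 52.7, 61.3 and 54.2 CPM in the double deletion (0.84 ± 0.0847), and REC104 at 12.7 to 14.4 and 19.6 to 26.9 CPM (0.73 ± 0.0994). SUL1 was at 1.84, 6.31 and 9.22 CPM in rrp6Δ cells and at 11.5 to 16.1 CPM in the double deletion (1.35 ± 0.249, adjusted p = 0.00733, and 0.296 without the block). Among gene lists, 5 iron genes and 5 amino acid genes under Gcn4 were higher than in rrp6Δ cells (0.548% of ORF-T rows), and 4 meiotic genes, HFM1 among them, were lower and 1 higher (0.994% of ORF-T rows lower). These 3 counts (iron higher, Gcn4 higher and meiotic lower) were 0, 3 and 0 without the replicate block, and ran from 0 to 6, 3 to 5 and 0 to 2 with 1 replicate left out. No PAU, DAN, TIR, hypoxic or histone gene passed the call against rrp6Δ in either direction.

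**Figure D5:**
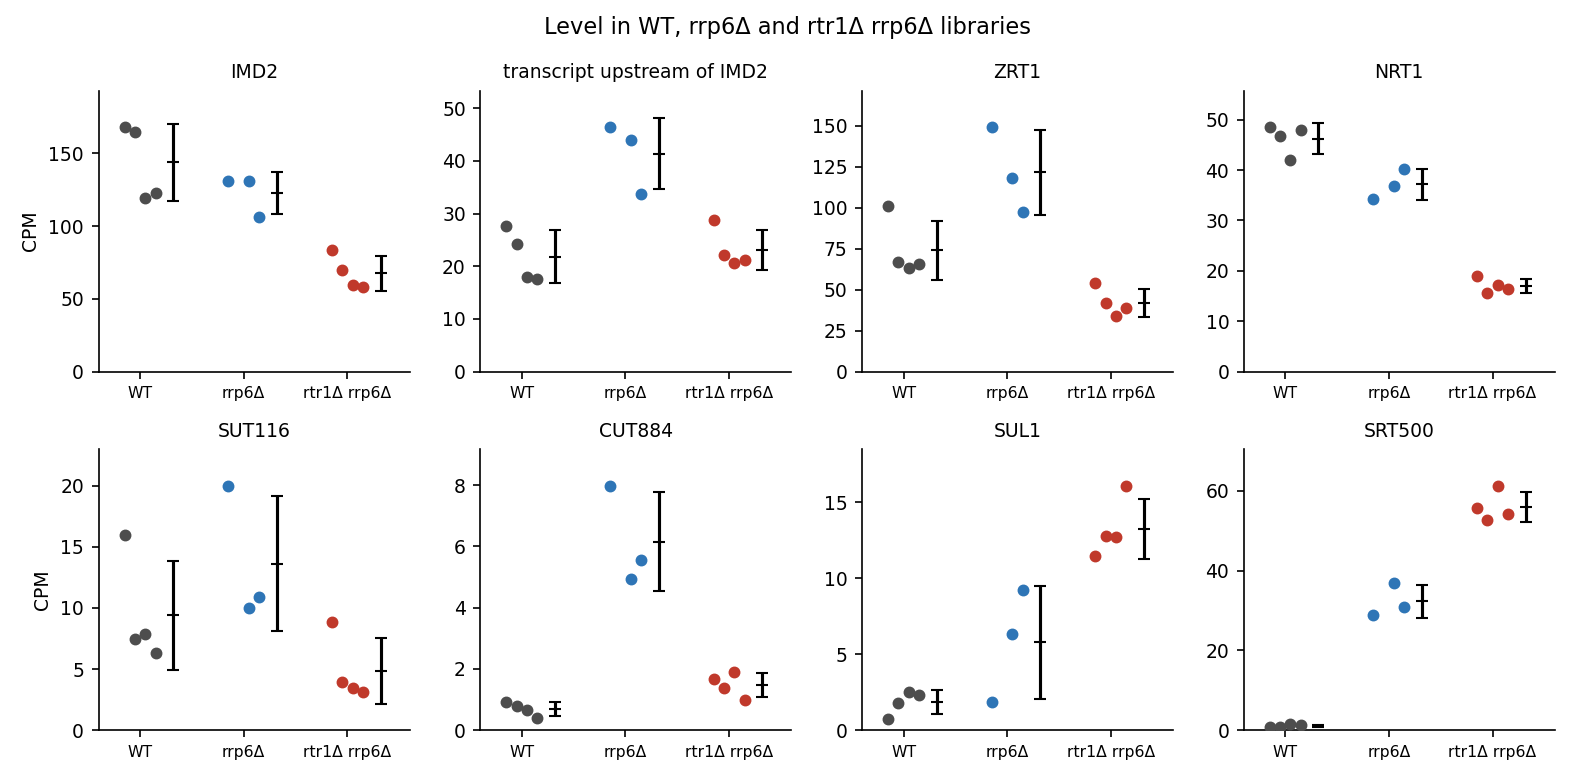
CPM (y axis, linear from 0) of 8 transcripts in the 4 WT (grey), 3 rrp6Δ (blue) and 4 rtr1Δ rrp6Δ (red) libraries, with mean ± SD beside the points. IMD2, ZRT1 and NRT1 lie lowest in the double deletion, CUT884 is highest in rrp6Δ cells, and SRT500 and SUL1 are highest in the double deletion.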

How the data were processed

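Reads were aligned to sacCer3 with STAR 2.5.2b and counted per transcript with featureCounts of Subread 1.5.0 by the authors (tools and versions from the submitters' processing notes), who deposited whole-number counts. Their table legend calls these values normalized, but the smoothness of each library's histogram of values is that of unscaled counts (dispersion 0.766 to 1.12, against at least 2.41 after rescaling by 0.9 or 1.1), and the counts were used as deposited. The table also holds fold changes and FDR values of the authors' own comparisons, which were not used. Of the per-sample columns 1, whose header names another genotype than its place, was not used. Spike-in RNA was not analysed here.

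Counts of 8 libraries were fitted in R 4.3.3 with edgeR 4.0.16: filterByExpr (4 rows removed), TMM over all rows, quasi-likelihood F tests and Benjamini-Hochberg adjustment, with replicate number as a block. Per the study's methods, cultures of 1 replicate were grown on the same day. Deviations from group means correlated within same-numbered pairs (0.758, 0.297, 0.517 and 0.494), and each library correlated best with its own number, so the numbers were taken as pairs. A second fit of 11 libraries compared the double deletion with rrp6Δ. On simulated counts for the main comparison (12670 rows), the block fit found 88.06% of 2-fold and 55.22% of 1.5-fold changes past both limits. Class shares were compared with exact permutation tests. Alternatives were no block, other scalings, DESeq2 1.42.0, other filters, added libraries, no fold minimum and leaving out each replicate pair.

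Transcripts to name were the deleted loci with antisense rows and neighbours, auxotrophic markers, the transcripts the study followed, the largest rises and falls per class among called rows with at least 50 counts and no overlap, up to 4 called members of each of 37 gene lists, the 10 rows with the smallest p against rrp6Δ, and opposite sense and antisense pairs. Some were left out for space. Further list members (FIT, ARN and MET genes among them), mature snoRNA rows and neighbours of HFM1 and GYP5 were chosen after their values were seen. Members and lists were chosen with earlier results of these data known. Symbols and coordinates of 5586 of 5836 ORF-T rows came from RefSeq R64, which has the coordinates of sacCer3. Floors of 3 counts cover counting error only.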

Additional observations from a re-analysis of the deposited data

Results flagged for a closer look

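In a group of 4 libraries, a library was singled out when its gap to the nearest other took more of the group's whole range than Dixon's critical value for 4 samples, which chance gives in about 1 of 20 groups. The groups share libraries and many genes were looked at, so several are to be expected. WT replicate 4 was high for genes of anaerobic growth, with 33.7 CPM for PAU9, 27.1 CPM for PAU13, 106 CPM for DAN1, 34.7 CPM for PAU5 and 43.6 CPM for PAU24, and low for NUT0013 (2.86 CPM). WT replicate 1 was high for ZRT1 (95.7 CPM), MAN_Unit124 (15.7 CPM), AS_Unit2948 (12.5 CPM) and YDR199W (0.101 CPM), and low for RTG2 (37.9 CPM). WT replicate 3 had 0.0 CPM for YLR364C-A. In the double deletion, replicate 1 stood apart for HFM1 (0.0591 CPM), SUT116 (7.86 CPM) and MAN_Unit124 (8.19 CPM), replicate 2 for PAU13 (0.38 CPM) and replicate 3 for SUT503 (40.4 CPM). SUT116, MAN_Unit124 and AS_Unit2948 share most of their counts and are 1 observation.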

How the results depend on the processing

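Over 15 alternatives, none of the 121 named transcripts changed direction where called, and 13 of 105 calls were lost under at least 1 setting, 11 of them with ORF-T scaling. Against WT, the 4395 higher transcripts became 2424 among rows with at least 1 CPM in WT cells (chosen after seeing the data) and ranged from 4356 to 4424 without 1 replicate. The 1077 lower ones became 590 with upper-quartile scaling, 445 with ORF-T scaling, 663 with the 1 CPM limit and 4925 without the fold minimum, and ranged from 956 to 1102 without 1 replicate. ORF-T rows higher numbered 438 without the fold minimum. ORF-T rows lower numbered 352 with upper-quartile scaling, 248 with ORF-T scaling, 409 with the 1 CPM limit and 3802 without the fold minimum. What caused these changes was not tested.

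Without the replicate block, 4285 were higher and 1009 lower, of which 4280 and 992 were called with it. The exact sign-flip test over the 4 replicate pairs gave the smallest p it allows for every class share, and with 4 pairs that p cannot reach 0.05. Against rrp6Δ, the 69 higher transcripts became 18 without the replicate block, 41 with ORF-T scaling and 560 without the fold minimum, with 33 to 67 without 1 replicate. The 427 lower ones became 96 without the block and 681 without the fold minimum, with 93 to 402 without 1 replicate (220 without replicate 1, 93 without replicate 3, 262 without replicate 4). The cause was not tested. With sn/snoRNA rows left out, the CUT share differed by 0.663 and the ORF-T share by -4.18 percentage points, since the total is smaller. Over rows with at least 1 CPM in WT cells, the differences in share were 0.373 for CUTs, 0.0304 for SRTs and 0.558 for ASTs, the last no longer past the threshold (exact permutation p = 0.0857). Shares without 1 replicate compare 3 with 3 libraries, which cannot reach 0.05.

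Rows near 1 CPM rest on few counts, replicate 2 of rrp6Δ was not analysed, and all levels are relative to the library.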
